A study of Mus musculus with 12 samples.

Results

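The genes described here copy the genome and supply its building blocks: 49 mouse genes for DNA replication and nucleotide synthesis, from the MCM helicase to ribonucleotide reductase. A gene counted as measured if an array probe annotated with its symbol alone was detected (detection p-value under 0.05) on at least 2 of 12 arrays, and it was then represented by its brightest such probe. By this rule 43 of the 49 were measured, among 9791 genes with a kept probe in all. The annotation gave no probe for Mcm3 or Gins1. Probes for Orc1, Pola1 and Ccne2 were detected on 0 arrays. Dut, detected on 1 array, lay just outside the rule, and Mcm10, on 2 arrays, just inside it, followed by Prim2 and Ccne1 on 3. Of the 43, 26 were detected on all 12 arrays.

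The series profiled bone marrow hematopoietic stem cells (HSCs), sorted as lineage-negative, c-kit-positive, Sca-1-positive, CD48-negative and CD150-positive, on Illumina bead arrays, with RNA of 200 cells per array amplified in 2 rounds. The mice were WT, R26-mp53 with the mutant p53 (mp53) allele recombined throughout, or R26-mp53 mosaics, in which mp53 cells carried GFP and WT cells did not. There were 6 groups of 2 arrays: WT and mp53 cells of mosaic mice that received no treatment, cells of irradiated WT mice and of irradiated fully recombined mp53 mice (non-competing), and WT cells (losers) and mp53 cells (winners) of irradiated mosaic mice, with 2.5 Gy given 3 weeks before the cells were taken. Separate animals or pools are not recorded behind arrays named as biological replicates, so a p-value reflects only how far these samples spread, and the sources used here give no age, p53 mutation or driver of recombination.

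Replication starts where the origin recognition complex binds DNA and, with CDC6 and CDT1, loads the MCM helicase in G1. At the onset of S phase the helicase is joined by CDC45 and the GINS complex, and polymerases held by the PCNA clamp copy both strands from deoxynucleotides that ribonucleotide reductase, thymidylate synthase and thymidine kinase provide. Many of these genes are transcribed by E2F factors ahead of S phase, and HSCs are for the most part quiescent, so their transcripts are commonly read as a sign of cells in cycle.

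Promoter windows from RefSeq (GRCm38.p6) were at hand for 40 of the 49 genes. Within 250 bases before the start, 11 of the 40 (27.5%) held an E2F-type site, searched as TTTCCCGC, TTTGGCGC, TTTCGCGC or TTTGCCGC on both strands, against 2.16% of 27025 genes with a window. A CCAAT box was present in 23 (57.5%), against 37.5% of all genes. These are letter matches, not binding sites. A stretch around the E2F-type matches of Cdc6, Gins3, Mcm5 and Mcm6 is printed 5′ to 3′ along the gene to show how they lie, with matches to either motif in capitals. In Mcm5 and Mcm6 a pair of matches on opposite strands overlaps. The stretches lie at chr11:98907983-98908050 on the plus strand, chr8:95633488-95633555 on the plus strand, chr8:75109326-75109397 on the plus strand and chr1:128359715-128359845 on the minus strand. No E2F-type match was found in the windows of Rrm2, Tk1, Rfc5 or Pcna.
Cdc6: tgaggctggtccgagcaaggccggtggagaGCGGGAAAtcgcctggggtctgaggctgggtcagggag
Gins3: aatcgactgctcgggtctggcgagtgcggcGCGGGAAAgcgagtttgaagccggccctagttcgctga
Mcm5: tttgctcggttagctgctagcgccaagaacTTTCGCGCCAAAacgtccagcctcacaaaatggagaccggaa
Mcm6: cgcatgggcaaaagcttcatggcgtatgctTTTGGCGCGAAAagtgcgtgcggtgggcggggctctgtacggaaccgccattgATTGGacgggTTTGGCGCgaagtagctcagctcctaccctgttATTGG

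The arrays were unequal, and this bears on every comparison. Raw intensity at the 95th percentile was between 82.3 (unirradiated mp53, replicate 1) and 107 (loser, replicate 1) at the low end and 1079 (winner, replicate 2) at the high end. Of the 43 genes, 27 were detected on the dimmest array, 34 on each loser array and 41 on the brightest. Unirradiated mp53 replicate 1 held the lowest of the 12 values for 17 of the 43 genes (39.5%, against 20.8% of all probes), and winner replicate 2 the highest for 13 (30.2%, against 10.8%). The plot of all genes by array shows both columns.

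**Figure D1:**
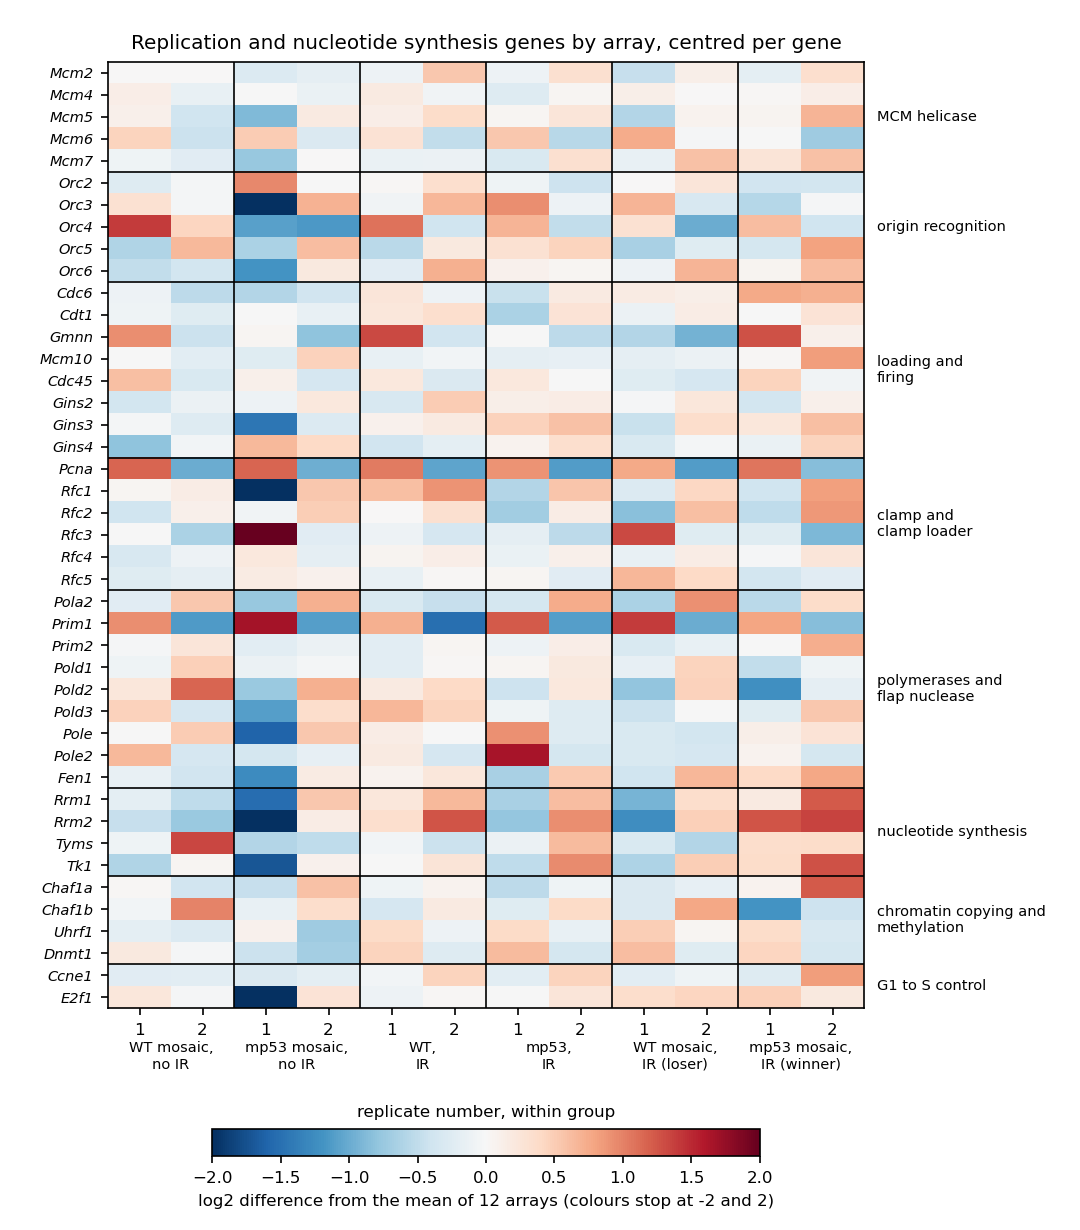
Each of the 43 measured genes (rows, by role) on each of the 12 arrays (columns, 2 per group, replicates 1 and 2), as the log2 intensity minus the gene's mean over the 12 arrays. Unirradiated mp53 replicate 1 is the lowest array for 17 genes, winner replicate 2 is the highest for 13, and Pcna and Prim1 alternate between replicates 1 and 2 in all 6 groups.

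Values are background-corrected, quantile-normalized log2 intensities. A linear model (limma) with a mean per group was fitted to all 17046 probes detected on at least 2 arrays, and a gene was called at a Benjamini-Hochberg adjusted p under 0.05. In each of the 11 comparisons, 9 between groups and 2 interactions, 0 of the 43 genes and 0 of the 17046 probes (0%) were called. A moderated F test over the 6 groups also called 0 genes and 0 probes (0%). At an unadjusted p under 0.05 that F test had 1 of the 43 genes, Cdc6 (0.0298), against 3.99% of all probes. The genes are therefore described by their values. An alternative that sets the array medians equal, in place of quantile normalization, moved the median of all probes itself, by up to 0.71 log2 between 2 groups. Its counts stand beside each comparison.

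Winners and losers were the mp53 and the WT cells of irradiated mosaic mice. Of the 43 genes, 29 lay higher (48.4% of all probes) and 14 lower in winners, with a median difference of 0.25 log2 (-0.02 over all probes), and the higher ones included every measured gene of nucleotide synthesis. Not detected on either loser array were 8 of the 43 genes, while 0 were missed on both winner arrays. All 8 lay higher in winners. With loser values too low to be detected they could hardly do otherwise, so they add little to that count. With equal array medians 42 were higher (79.8% of all probes) and 1 lower, where the median of all probes was 0.71. Both winner arrays lay above both loser arrays for 9 genes, against 23.3% of all probes, and below both for 3, against 25.9%, so neither count exceeded its background. Without adjustment, at p under 0.05 there was 1 gene lower in winners, Rfc5, against 5.89% of all probes, and 0 higher, against 6.15%. With the replicate number as a block there were 7, against 22.5%. The median was 0.18 within replicate 1 and 0.24 within replicate 2, and 0.07 without loser replicate 1, the second dimmest array.

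Among the licensing factors, Cdc6, the loader of the MCM helicase, was at 8.40 and 8.34 in winners and at 7.80 and 7.75 in losers. Both winner arrays were its highest of the 12, and the other 10 ran from 7.05 to 7.88. The winner-loser difference was 0.59 (SE 0.29, limma adjusted p = 0.451). Cdt1, which loads the helicase together with CDC6, differed little, at 8.52 and 8.81 in winners and 8.41 and 8.67 in losers. Gmnn encodes geminin, which binds CDT1 and blocks loading again after S phase has begun. It stood at 7.44 and 6.27 in winners against 5.58 and 5.22 in losers, so that the groups did not overlap (difference 1.46, SE 0.69, limma adjusted p = 0.44). Leaving out winner replicate 1 gave 0.87 and leaving out winner replicate 2 gave 2.04. Replicate 1 lay above replicate 2 for Gmnn in all 6 groups, by 1.71 at most.

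Of the 8 measured genes for helicase loading and firing, 7 were higher in winners (median 0.46; 0.40 in replicate 1, 0.38 in replicate 2). Gins3, a subunit of the GINS complex of the active helicase, was at 6.17 and 6.54 against 5.50 and 6.30, with overlap. Mcm10 and Cdc45, which act when the helicase is activated, were not detected on either loser array, and Mcm10 on winner replicate 2 but not replicate 1. No fold is given for Mcm10, since its winner mean includes a value that was not detected. The winner mean of Cdc45 gave an at least 1.02-fold higher level, which rests on replicate 1 (5.14, and 4.64 on replicate 2). Gins2 was the exception, at -0.23.

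The 4 measured genes of deoxynucleotide supply were all higher in winners, with a median of 0.94 (replicate 1, 1.04; replicate 2, 0.87). Rrm2, the S phase subunit of ribonucleotide reductase, was at 8.67 and 8.76 in winners and at 6.17 and 7.89 in losers. The winner arrays were close together and the loser arrays were not, and the groups did not overlap (difference 1.69, SE 0.94, limma adjusted p = 0.499; 0.82 without the 2 dimmest arrays). Rrm1, the large subunit of the same enzyme, was at 7.38 and 8.41 against 6.27 and 7.55, with overlap. Tk1, thymidine kinase of the salvage route, was at 6.45 and 7.37 against 5.48 and 6.58, with overlap. Tyms, thymidylate synthase, was at 5.24 and 5.25 in winners and not detected on either loser array, at least 1.30-fold higher. In RNA of pooled sorted cells, fewer cells that carry a transcript and less of it per cell cannot be told apart. Without the 2 dimmest arrays the 4 genes were still all higher, with a median of 0.59, and with array brightness as a covariate 2 of 4 were higher and the median was -0.25.

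**Figure D2:**
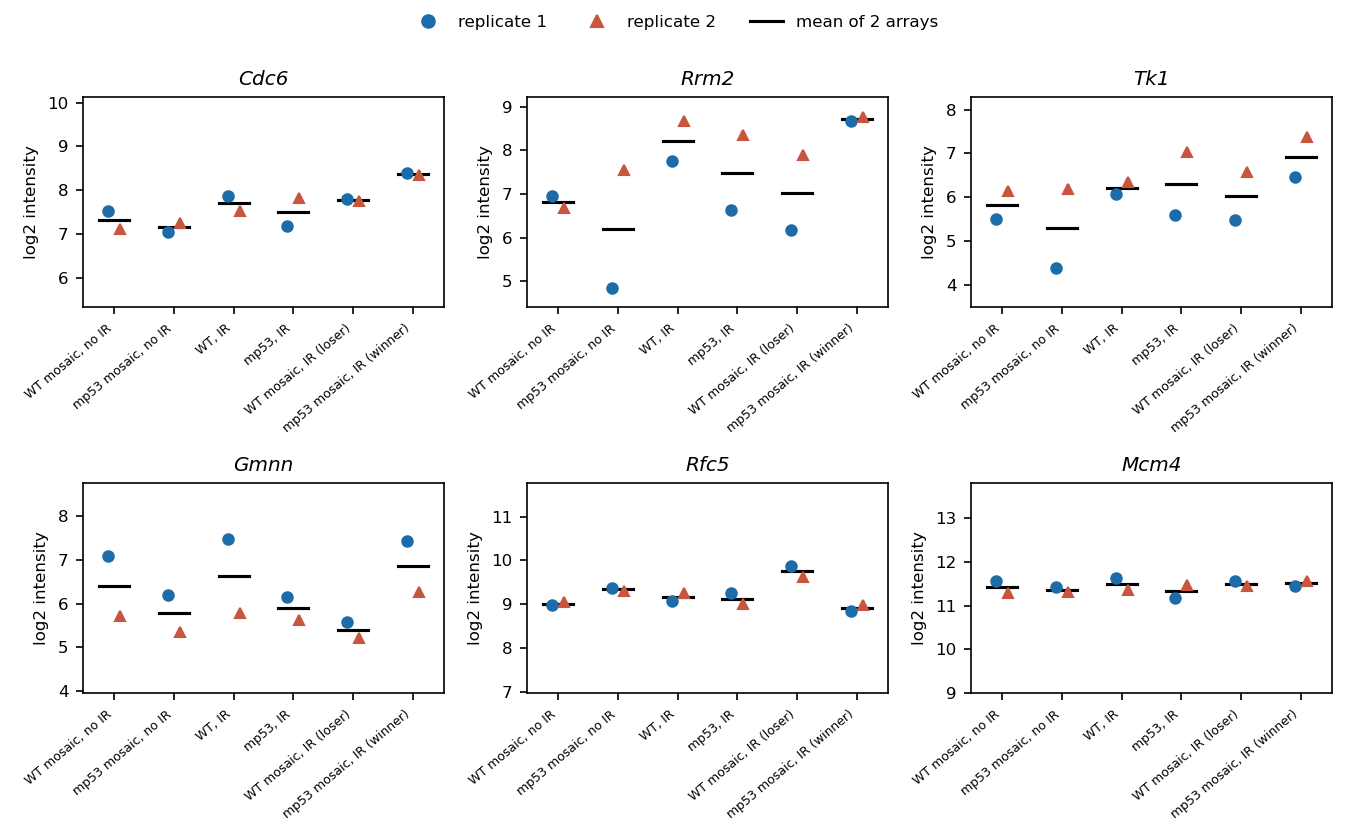
Log2 intensity (vertical axes, each spanning the same width) of Cdc6, Rrm2, Tk1, Gmnn, Rfc5 and Mcm4 in the 6 groups, with replicate 1 as circles, replicate 2 as triangles and the mean of the 2 arrays as a line. Cdc6 is highest on the 2 winner arrays (8.40 and 8.34), Rfc5 on the 2 loser arrays (9.88 and 9.62), and the Mcm4 group means span 0.19.

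The clamp loader gene Rfc5, which encodes a subunit of replication factor C, ran the other way. It was at 8.85 and 8.98 in winners and at 9.88 and 9.62 in losers, and the loser arrays were its highest of the 12. The difference of -0.83 (SE 0.22) had the smallest p of the 43 genes in this comparison, with a limma adjusted p of 0.303. Under equal array medians its sign turned, to 1.28. Rfc3, another subunit, was at 5.19 and 4.53 (the latter not detected) against 6.74 and 5.18, and its other kept probe had the opposite sign (0.32 against -1.10). Rfc1, the large subunit, differed by 0.14, Rfc2 by 0.29 and Rfc4 by 0.11. The other kept probe of Rfc4, also detected on all 12 arrays, differed by 0.90. That of Rfc2 differed by -1.03, so Rfc2 and Rfc3 were the 2 genes whose kept probes disagreed in sign.

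The MCM genes did not run together. Of the 5 measured MCM genes 4 were higher in winners (median 0.20), led by Mcm5 at 9.23 and 9.86 against 8.60 and 9.25. Mcm6 was the lower one, at 11.41 and 10.71 against 12.16 and 11.39 (difference -0.71), but at 1.19 with equal array medians and 0.36 with brightness as a covariate. The other kept probe of Mcm6, also detected on all 12 arrays, differed by -0.09. Mcm4 was the steadiest of the 43 genes, with group means from 11.32 to 11.51. Mcm2 was at 6.94 and 7.48 in winners and 6.68 and 7.25 in losers. Mcm7 was at 8.31 and 8.65 against 7.91 and 8.65. Without the 2 dimmest arrays the MCM median was -0.04, with 2 of 5 higher.

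Of 4 genes that rebuild and mark chromatin behind the fork 3 were lower in winners, with a median of -0.19. With equal array medians, however, 4 of 4 were higher (79.8% of all probes). Chaf1b, a subunit of the histone chaperone CAF-1, was at 7.53 and 8.30 in winners and at 8.43 and 9.50 in losers, without overlap (difference -1.05, SE 0.51, limma adjusted p = 0.452), but at 1.00 with equal array medians, and at -1.58 without the 2 dimmest arrays. Chaf1a, its partner subunit, was not detected on either loser array and was at least 1.45-fold higher in winners by their mean. That fold rests on winner replicate 2 (5.98, and 4.83 on replicate 1). Uhrf1, which recruits the maintenance DNA methyltransferase, was at 10.23 and 9.55 against 10.36 and 9.91. Dnmt1, that methyltransferase, was at 9.16 and 8.38 against 9.34 and 8.48. Both pairs overlapped.

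The other roles gave small medians between winners and losers. The 5 measured origin recognition genes had 0.04 and the 9 polymerase, primase and flap nuclease genes 0.18. Orc2, an origin recognition subunit, was lower on both winner arrays, 4.87 and 4.87 against 5.25 and 5.48. Pole, the catalytic subunit of polymerase epsilon, was higher on both, 6.20 and 6.36 against 5.78 and 5.72. Of the genes that open S phase, E2f1, the transcription factor, was at 9.20 and 8.92 against 9.08 and 9.16. Ccne1, cyclin E1, was not detected in losers or on winner replicate 1, and was at 5.36 on winner replicate 2.

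Markers of cell identity moved with the same comparison. Of 14 measured HSC markers, 14 were lower in winners, with a median difference of -2.42 and a mean level of 6.04 and 5.44 on the winner arrays and from 6.52 to 8.39 on the other 10, losers included. Of 9 progenitor markers 5 were higher (mean levels 7.88 and 7.56 against 6.08 and 7.03), of 16 granulocyte and monocyte markers 16 (9.74 and 9.81 against 6.58 and 8.24), of 12 erythroid markers 10 (7.66 and 7.46 against 5.06 and 6.47) and of 9 B lineage markers 8 (7.29 and 6.02 against 4.90 and 4.85). Of 19 genes of G2 and mitosis 18 were higher, with a median of 0.95. In replicate 1 the arrays also differed in the Y-linked Eif2s3y (9.21 in winners, 4.33 in losers). In replicate 2 it was at 8.29 and 7.28. Eif2s3y varied among the other groups too, given here with replicate 1 first. Unirradiated WT cells were at 9.14 and 4.23 and unirradiated mp53 cells at 9.42 and 4.22. Non-competing WT cells were at 9.88 and 9.13 and non-competing mp53 cells at 4.24 and 8.35. The part of these differences in those of the replication genes was not tested.

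Losers were set against non-competing WT cells, both WT and irradiated, from a different kind of mouse. Of the 43 genes 16 lay higher (52.7% of all probes) and 27 lower in losers (median -0.15, against 0.03 over all probes, and -0.20 and -0.02 within replicates). The 8 genes not detected on either loser array were all among the lower ones. Missed on both control arrays were 2 of the 43. With equal array medians 2 were higher (27% of all probes) and 41 lower, the median of all probes being -0.18. By unadjusted p under 0.05 there was 1 higher, Rfc5, against 1.86% of all probes, and 0 lower, against 1.97%; the sign of Rfc5 turned with equal array medians (0.59 to -0.41). Both loser arrays lay below both control arrays for 8 genes, against 14.9% of all probes, and above for 2, against 18.6%. The 8 were Mcm5, Cdt1, Gmnn, Rfc1, Pold3, Pole, Chaf1a and Ccne1, and the 2 were Rfc5 and E2f1. Chaf1a and Ccne1 were not detected on either loser array, nor Ccne1 on control replicate 1. All 4 nucleotide synthesis genes were lower (median -0.47), with Rrm2 at 7.75 and 8.67 in the controls, overlapping the 6.17 and 7.89 of losers. Gmnn was at 7.49 and 5.78 in the controls (difference -1.23, SE 0.69, limma adjusted p = 0.992), and the difference was -2.09 without control replicate 2 and -0.38 without control replicate 1. Pold3, an accessory subunit of polymerase delta, was at 6.83 and 7.26 in losers and 7.93 and 7.70 in controls. Of the HSC markers 13 of 14 were higher in losers (median 0.92), while 15 of 16 granulocyte and monocyte markers (median -2.08) and 18 of 19 genes of G2 and mitosis (median -0.71) were lower. In replicate 1 Eif2s3y was at 4.33 in losers and 9.88 in controls. The part of these in the differences of the replication genes was not tested.

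Winners were set against non-competing mp53 cells, both mp53 and irradiated. Of the 43 genes 24 lay higher (44.3% of all probes) and 19 lower in winners (median 0.10, against -0.04 over all probes; -0.04 in replicate 1 and 0.11 in replicate 2). Under equal array medians 39 were higher (70.3% of all probes) and 4 lower, the median of all probes being 0.23. At an unadjusted p under 0.05 there was 1 higher, Cdc6, against 1.28% of all probes, and 0 lower, against 1.35%. Both winner arrays lay above both control arrays for 5 genes, Cdc6, Gmnn, Mcm10, Rrm2 and Chaf1a, against 11.2% of all probes. They lay below for 4, Gins2, Rfc5, Pold1 and Chaf1b, against 14.7%. Mcm10 was not detected on either control array or on winner replicate 1. Cdc6 was at 7.19 and 7.82 in the controls, a difference of 0.87 (SE 0.29, limma adjusted p = 1; 0.55 without control replicate 1). The 4 nucleotide synthesis genes were again all higher (median 0.66, and 0.85 and 0.38 within replicates). Rrm2 was at 6.63 and 8.34 in the controls. Of the HSC markers 14 of 14 were lower in winners (median -2.02). Higher were 16 of 16 granulocyte and monocyte markers (median 2.29) and 8 of 9 B lineage markers (median 1.63). So were 11 of 12 erythroid markers (median 0.97) and 17 of 19 genes of G2 and mitosis (median 0.70). In replicate 1 Eif2s3y was at 9.21 in winners and 4.24 in controls. The part of these in the differences of the replication genes was not tested. This comparison and that of winners with losers use the same winner arrays. The interaction, which asks whether competition acted differently on the genotypes, had a median of 0.21. Of the genes 27 were above 0 (45.4% of all probes). Under equal array medians 40 were above 0 (73.9% of all probes) and 3 below, where the median of all probes was 0.44. By unadjusted p under 0.05, the interaction had 0 genes above 0, against 3.58% of all probes, and 1 below, against 3.21%. That gene was Rfc5, at -0.80 (SE 0.32, limma adjusted p = 0.723), and at 0.86 with equal array medians.

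**Figure D3:**
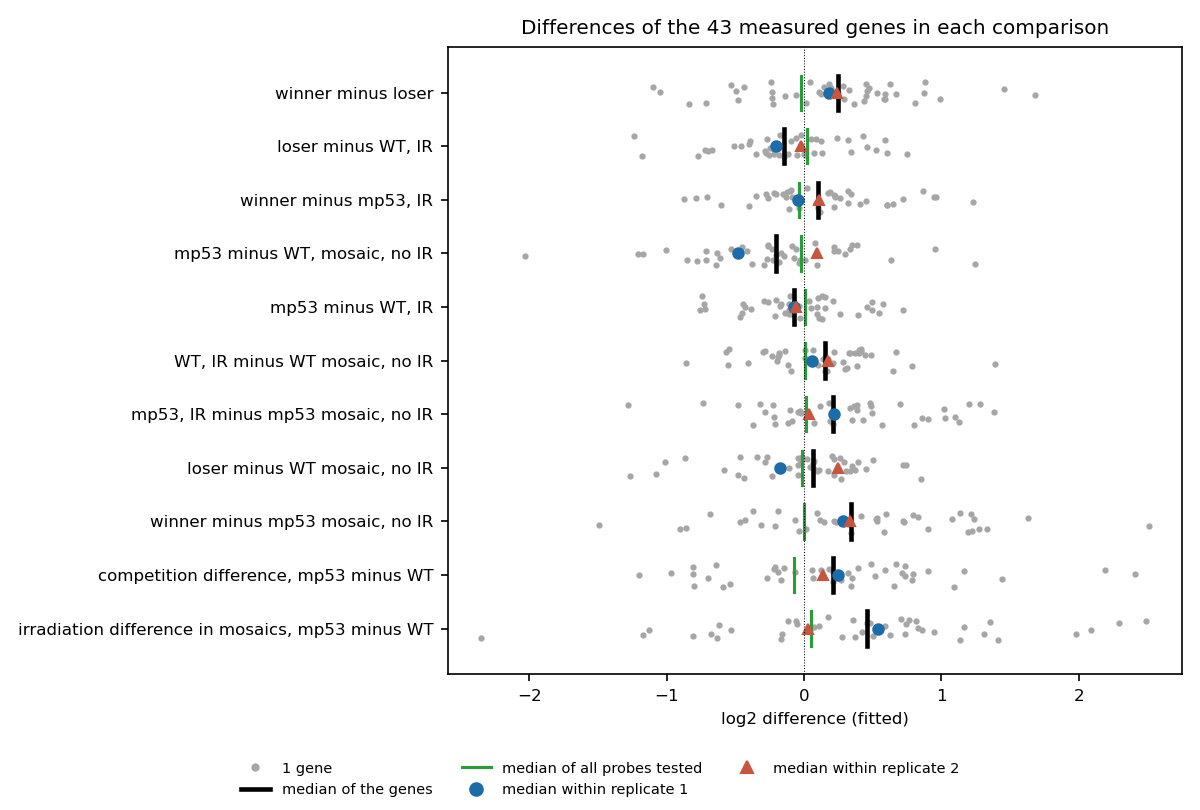
Fitted log2 difference (horizontal axis) of each of the 43 genes (grey points, spread vertically for sight) in the 11 comparisons, with the median of the genes in black, that of all probes in green, and the medians within replicates 1 and 2 as a circle and a triangle. The median of the genes is 0.25 for winners against losers and 0.34 for winners against unirradiated mp53 cells, where the median of all probes is -0.02 and 0.00.

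Winners were also set against unirradiated mp53 cells of mosaic mice. The latter are labelled as without competition, so this comparison joins irradiation with competition, whose parts cannot be told apart. Winners lay above unirradiated mp53 cells for 31 of 43 genes (50.2% of all probes) and below for 12 (median 0.34, against 0.00 over all probes, and 0.29 and 0.33 within replicates). The 6 genes not detected on either unirradiated mp53 array were all among the higher ones. With equal array medians 42 were higher (79.9% of all probes) and 1 lower, the median of all probes being 0.67. The groups did not overlap for 13 genes higher in winners, against 21.4% of all probes, and 4 lower, against 20.3%. Without adjustment, at p under 0.05 there were 3 higher, against 5.4% of all probes, and 1 lower, against 6.27%, and with the replicate block there were 15 in all, against 23%. Cdc6 was at 7.05 and 7.25 in unirradiated mp53 cells (difference 1.22, SE 0.29, limma adjusted p = 0.385). Gins3 was at 4.49, not detected, and 5.67 there (difference 1.28, SE 0.41, limma adjusted p = 0.385). Rrm2 was at 4.86, not detected, and 7.55 there (difference 2.51, SE 0.94, limma adjusted p = 0.398). The fitted differences of both rest on that value of the dimmest array, below its lowest detected value of 5.09, and within replicate 2 alone they were 0.87 and 1.21.

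All 4 nucleotide synthesis genes were higher in winners than in unirradiated mp53 cells, with a median of 1.41 (1.89 and 1.03 within replicates). Tk1 was at 6.18 on replicate 2 of the unirradiated cells, below both winner arrays, and not detected on replicate 1. Rrm1 was at 5.67 and 7.73 and overlapped. E2f1 was at 6.65 and 8.99, and all of its difference came from replicate 1 (2.55 against -0.07 in replicate 2). Without unirradiated mp53 replicate 1, the dimmest array, the differences of Rrm2 and Gins3 were 1.16 and 0.69, and that of Cdc6 was 1.12. Without replicate 2 of that group, the dimmest array alone stood for the group. The difference of E2f1 was 2.41 then and 0.07 without replicate 1. Of the HSC markers 14 of 14 were lower in winners (median -2.31), while 15 of 16 granulocyte and monocyte markers (median 1.69), 10 of 12 erythroid markers (median 1.56), 8 of 9 B lineage markers (median 1.57) and 18 of 19 genes of G2 and mitosis (median 0.94) were higher. In replicate 2 Eif2s3y was at 8.29 in winners and 4.22 in unirradiated mp53 cells. The part of these in the result was not tested.

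Losers were set against unirradiated WT cells of mosaic mice, which joins irradiation with competition in the same way. In losers 24 genes were higher (48.8% of all probes) and 19 lower (median 0.06, against -0.01 over all probes), but the median was -0.17 within replicate 1 and 0.25 within replicate 2. Of the 8 genes not detected on either loser array all but Ccne1 were among the lower ones. Under equal array medians 2 were higher (20.7% of all probes) and 41 lower, the median of all probes being -0.43. At an unadjusted p under 0.05 there was 1 in each direction, Rfc5 higher and Tyms lower, against 1.95% and 2.05% of all probes. The groups did not overlap for 7 higher, against 18.8% of all probes, and 5 lower, against 15.8%. Rfc5 was at 8.97 and 9.04 in unirradiated WT cells, below both loser arrays (difference 0.74, SE 0.22, limma adjusted p = 1, and -0.75 with equal array medians). Orc4, an origin recognition subunit, was at 7.06 and 6.10 against 5.96 on loser replicate 1, and was not detected on loser replicate 2. Tyms was at 4.80 and 6.22 in the unirradiated cells, so its level there rests on replicate 2, and it was not detected in losers. Lower in losers were 8 of 14 HSC markers (median -0.06) and 12 of 19 genes of G2 and mitosis (median -0.26). So were 13 of 16 granulocyte and monocyte markers (median -0.23, and -2.25 and 1.46 within replicates). Eif2s3y was at 4.33 and 7.28 in losers and 9.14 and 4.23 in unirradiated WT cells. The part of these in the differences of the replication genes was not tested.

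The interaction of irradiation with genotype in mosaic mice had a median of 0.46, but 0.54 within replicate 1 and 0.03 within replicate 2. Competition came with irradiation in these mice, so the interaction covers both. Of the genes 30 were above 0 (52% of all probes) and 0 were called. Under equal array medians 42 were above 0 (83% of all probes) and 1 below, where the median of all probes was 1.16. Without adjustment, at p under 0.05 there were 2 above 0, against 5.44% of all probes, and 2 below, against 8.39%. Rfc5 was at -1.17 (SE 0.32, limma adjusted p = 0.299; 2.37 with equal array medians). Tyms and Orc4 had the next smallest p (limma adjusted p = 0.318 and 0.334), but no size is given for them, since Orc4 was not detected in unirradiated mp53 cells and Tyms neither there nor in losers. Without the 2 dimmest arrays the median was -0.03, and without unirradiated mp53 replicate 2 it was 0.71.

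Non-competing cells were also set against unirradiated cells of their genotype, which joins irradiation with the kind of mouse. In WT cells 28 genes lay higher (51.3% of all probes) and 15 lower after irradiation (median 0.15, against 0.01 over all probes, and 0.06 and 0.17 within replicates). By unadjusted p under 0.05 there were 0 genes, against 0.417% of all probes higher and 1.33% lower. The groups did not overlap for 13 of the 43 genes higher, against 14.2% of all probes, and for 1 lower, Pola2, against 14.1%. The 13 spanned the roles: Mcm5, Orc2, Orc6, Cdt1, Gins3, Rfc1, Rfc4, Rfc5, Fen1, Rrm1, Rrm2, Uhrf1 and Ccne1. Of these Ccne1 was not detected on either unirradiated array or on irradiated replicate 1. Rrm2 was at 6.95 and 6.67 in unirradiated cells and 7.75 and 8.67 after irradiation (difference 1.39, SE 0.94, limma adjusted p = 1). With equal array medians 7 genes were higher (31.8% of all probes) and 36 lower, with a median of -0.22 (-0.15 over all probes). Of the HSC markers 14 of 14 were lower after irradiation (median -0.99). Higher were 15 of 16 granulocyte and monocyte markers (median 1.36) and 19 of 19 genes of G2 and mitosis (median 0.49). In replicate 2 Eif2s3y was at 9.13 in irradiated and 4.23 in unirradiated cells. The part of these in the differences of the replication genes was not tested.

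In mp53 cells 28 genes lay higher (52% of all probes) and 15 lower after irradiation without competition (median 0.21, against 0.02 over all probes, and 0.22 and 0.04 within replicates). The 6 genes not detected on either unirradiated array were all among the higher ones. Under equal array medians 39 were higher (81% of all probes) and 4 lower, the median of all probes being 0.37. At an unadjusted p under 0.05 there was 1 higher, Gins3, against 1.69% of all probes, and 0 lower, against 1.77%. The groups did not overlap for 7 higher, against 12.2% of all probes, and 3 lower, against 11.4%. Gins3 was at 6.41 and 6.52 against 5.67 on unirradiated replicate 2 and no detected value on replicate 1 (difference 1.39, SE 0.41, limma adjusted p = 0.936; 0.80 without that replicate 1). Orc2 was at 5.16 and 4.83 against 6.21 and 5.24. The median was -0.03 without unirradiated mp53 replicate 1. Of the HSC markers 11 of 14 were lower after irradiation (median -0.51). Higher were 8 of 16 granulocyte and monocyte markers and 15 of 19 genes of G2 and mitosis (median 0.21). Eif2s3y was at 4.24 and 8.35 in irradiated and 9.42 and 4.22 in unirradiated cells. The part of these in the differences of the replication genes was not tested.

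Genotype was compared without competition in 2 settings. In unirradiated mosaic mice 13 genes lay higher (48% of all probes) and 30 lower in mp53 than in WT cells (median -0.20, against -0.02 over all probes), but the median was -0.48 within replicate 1, which holds the dimmest array, and 0.09 within replicate 2. The 6 genes not detected on either mp53 array were all among the lower ones. With equal array medians 4 were higher (22.8% of all probes) and 39 lower, the median of all probes being -0.38. By unadjusted p under 0.05 there was 1 higher, Gins4, against 2.42% of all probes, and 2 lower, Orc4 and Tyms, against 2.02%. The groups did not overlap for 4 higher, against 14.1% of all probes, and 6 lower, against 13.5%. Orc4 was not detected on either mp53 array and was at least 3.19-fold lower there than in WT cells (limma adjusted p = 0.869). Tyms was likewise not detected and was at least 1.52-fold lower by its WT mean. That fold rests on WT replicate 2 (6.22). WT replicate 1, at 4.80, lay below the lowest detected value of mp53 replicate 1 (5.09). Gins4, a GINS subunit, was at 9.99 and 9.74 in mp53 and 8.53 and 9.28 in WT cells (difference 0.96, SE 0.33, limma adjusted p = 0.869). Its difference was 1.33 without WT replicate 2, 0.58 without WT replicate 1, and -0.52 with equal array medians. Lower in mp53 were 8 of 14 HSC markers (median -0.22) and 8 of 9 progenitor markers (median -0.32). So were 12 of 19 genes of G2 and mitosis (median -0.07, and -0.85 and 0.48 within replicates). Higher were 8 of 16 granulocyte and monocyte markers (median 0.08, and -1.73 and 1.86 within replicates). The part of these in the differences of the replication genes was not tested.

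Between irradiated non-competing mp53 and WT cells, 19 genes lay higher (50.8% of all probes) and 24 lower in mp53 (median -0.07, against 0.00 over all probes, and -0.07 and -0.05 within replicates). Under equal array medians 34 were higher (72.3% of all probes) and 9 lower, the median of all probes being 0.16. The groups did not overlap for 4 in each direction, against 11.4% of all probes higher and 8.26% lower. Without adjustment, at p under 0.05 there were 0 genes, against 0.751% of all probes higher and 0.27% lower. All 6 clamp and clamp loader genes were lower in mp53, with differences from -0.76 to -0.04, but 4 of 6 were higher with equal array medians. Cdt1 was at 7.89 and 8.79 in mp53 and 8.76 and 8.86 in WT cells (difference -0.47; -0.014 without mp53 replicate 1, and 0.03 with equal array medians). Pold3 differed by -0.72 (SE 0.51, limma adjusted p = 1). Of the HSC markers 14 of 14 were higher in mp53 (median 0.45). Lower were 15 of 16 granulocyte and monocyte markers (median -1.72, and -3.31 and -0.04 within replicates). So were 18 of 19 genes of G2 and mitosis (median -0.37). In replicate 1 Eif2s3y was at 4.24 in mp53 and 9.88 in WT cells. The part of these in the differences of the replication genes was not tested.

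**Figure D4:**
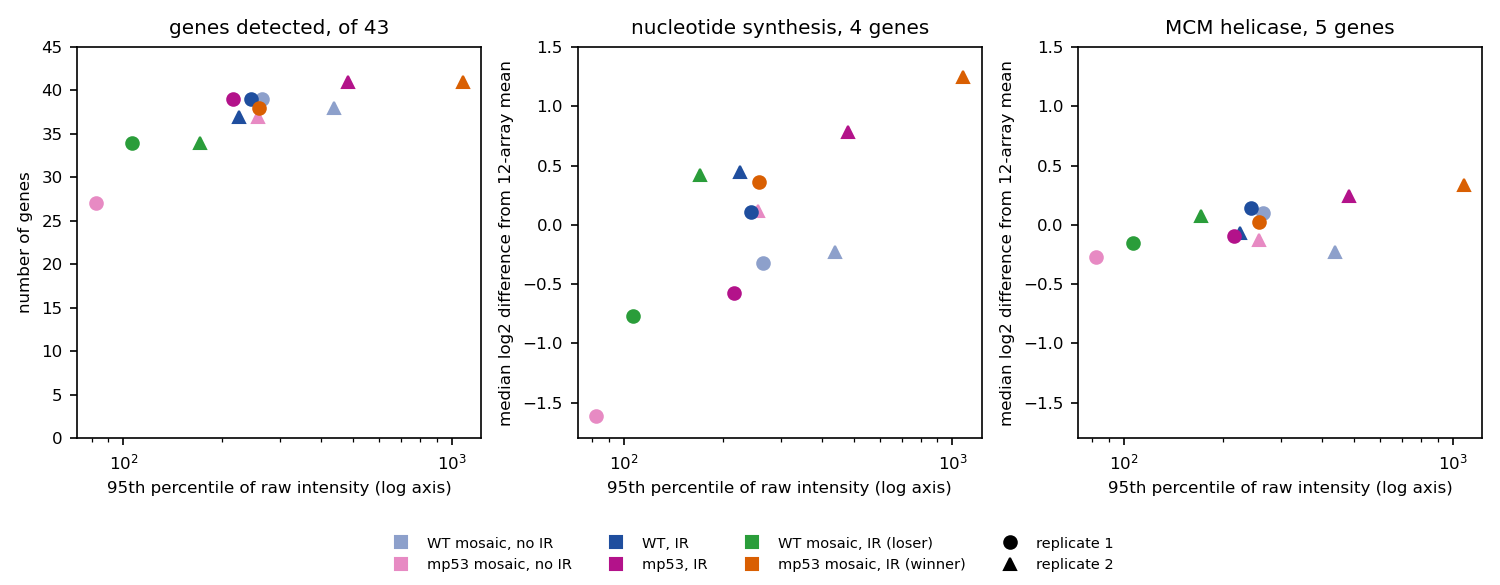
Number of the 43 genes detected (left), and the median difference from the 12-array mean for the 4 nucleotide synthesis genes (middle) and the 5 MCM helicase genes (right), against the 95th percentile of raw intensity of each array (log axis). The nucleotide synthesis median runs from -1.61 on the dimmest array to 1.25 on the brightest, and the MCM median from -0.27 to 0.34.

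The nucleotide synthesis genes were lowest on the dimmest arrays and highest on the brightest, but did not follow brightness in between. Their median difference from the 12-array mean was -1.61 on the dimmest array and -0.77 on loser replicate 1, the next. It was 1.25 on winner replicate 2 and 0.78 on non-competing mp53 replicate 2, the brightest pair. The third dimmest array, loser replicate 2, was at 0.42, and the third brightest, unirradiated WT replicate 2, at -0.23. Over the 8 arrays in between it ran from -0.58 on non-competing mp53 replicate 1 to 0.45 on non-competing WT replicate 2. The MCM median moved much less, from -0.27 to 0.34. With brightness as a covariate the differences of Cdc6 were 0.46 between winners and losers and 1.09 between winners and unirradiated mp53 cells, where those of Rrm2 were 0.11 and 1.02 and those of Rrm1 -0.61 and -0.32.

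Some of these genes differed far more between the replicates than between the groups. The arrays numbered replicate 1 were deposited in one table and those numbered replicate 2 in another, each with every group once, so the term for the replicate is a comparison of 6 arrays with 6. It was called for 15 of the 43 genes, 8 higher in replicate 1 (10.9% of all probes) and 7 lower (9.57%). Pcna, the sliding clamp, was at 10.39 to 10.80 on the replicate 1 arrays and 8.50 to 8.77 on the replicate 2 arrays (difference 2.04, SE 0.11, limma adjusted p = 9.07e-05), while its group means spanned 0.29. Prim1, the catalytic subunit of primase, was at 9.64 to 10.60 and 7.43 to 8.08 (difference 2.23, SE 0.16, limma adjusted p = 0.000229). Both were higher in replicate 1 in 6 of 6 groups, and the ranges did not overlap.

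Mcm6 (0.83), Orc4 (1.00) and Gmnn (0.99) were also higher in replicate 1, and Chaf1b (-0.76), Pold2 (-0.93) and Tk1 (-1.03) lower, each in 6 of 6 groups. Rrm1 lay just inside the threshold (limma adjusted p = 0.04998). For 5 genes the replicate difference exceeded the whole range of the group means. The labels do not say what set the replicates apart, and its cause was not tested. Rfc5 (0.04) and Cdc6 (0.01), by contrast, differed little on average between the replicates.

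**Figure D5:**
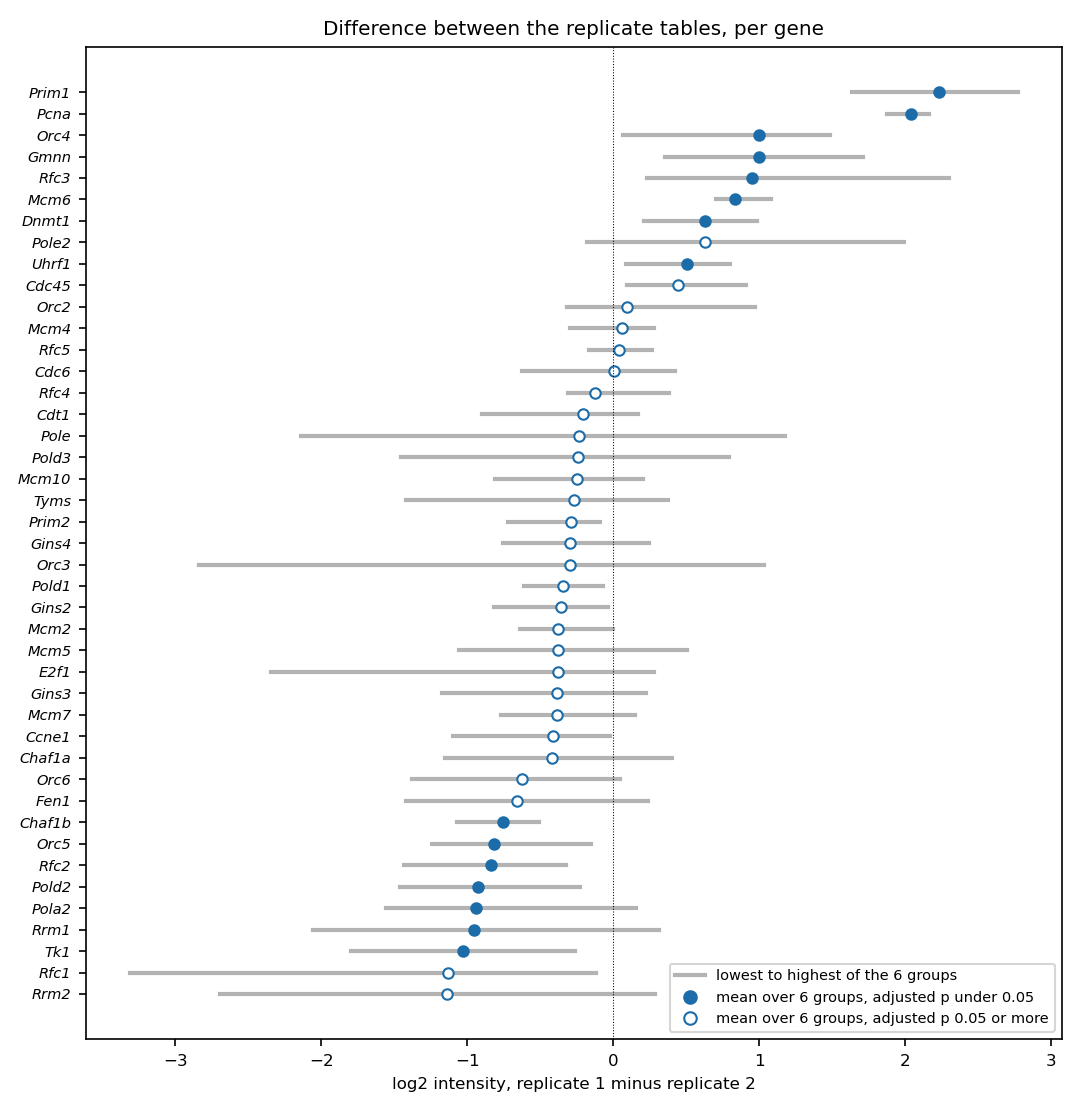
Log2 intensity of replicate 1 minus replicate 2 (horizontal axis) for each of the 43 genes. Circles are means over the 6 groups, filled at an adjusted p under 0.05, and bars run from the lowest to the highest group; Prim1 (2.23) and Pcna (2.04) stand apart, with all 6 groups on one side.

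A wider list of 71 other replication and nucleotide genes, which has no gene in common with the 49, was read in the same way. Of these 55 were measured and 0 were called in any of the 11 comparisons. Between winners and losers 30 of the 55 lay higher (48.4% of all probes) and 25 lower. The median was 0.20, against -0.02 over all probes, and 0.11 and 0.09 within replicates. At an unadjusted p under 0.05 there were 6 higher, against 6.15% of all probes, and 1 lower, against 5.89%. Its smallest p there belonged to E2f2, a transcription factor of the E2F family. E2f2 was at 10.25 and 8.89 in winners and 5.35 and 6.50 in losers (difference 3.64, SE 1.13, limma adjusted p = 0.305), and its other arrays ran from 4.78 to 8.53. Samhd1, which breaks down deoxynucleotides, was at 9.38 and 9.52 in winners and 8.02 and 7.87 in losers (difference 1.51, SE 0.47, limma adjusted p = 0.308). Its winner arrays were its highest of the 12.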

How the data were processed

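RNA of sorted HSCs was measured on 12 bead arrays. The authors deposited linear probe intensities, not background-subtracted, and a detection p-value beside each, in 1 non-normalized table for each replicate number, per the file headers; how the p-value was made is not given in the sources used here. They also deposited a table of processed intensities, used only as an alternative. Value columns left without an array numbered 0. Repeat entries of 11 probes were replaced by their mean. Of 46632 probes, 29976 had 1 gene symbol in the platform annotation, 10 several and 16646 none, and none was named from the latter kinds.

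From the deposited intensities, log2 values were made here with neqc in limma 3.58.1 (R 4.3.3): normexp background correction from the detection p-values, offset 16, and quantile normalization. The filter kept 17046 probes, those whose detection p-value was below 0.05 on 2 or more arrays. limma's lmFit and eBayes fitted a mean per group (6 residual degrees of freedom), with Benjamini-Hochberg adjustment over all kept probes and calls at 0.05. With so few arrays precision is limited, and a difference had a median standard error of 0.42 for all probes and 0.51 for the 43 genes. Where both arrays of a group missed a gene, its "at least" fold takes a floor there, which is each array's lowest detected value or the gene's own value, whichever is greater, averaged over the arrays. Medians of lists take fitted values as they are, and genes may have passed the detection filter through 1 group.

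Same-numbered arrays deviated together: the correlation of their deviations from the group means was 0.10 to 0.62 over 15 pairs of groups (median 0.53). The number is also the deposited table, so it served as a block in an alternative. Differences were recomputed under each alternative for the 3 genes with the smallest p per comparison, and are printed where the groups were detected; array values are printed for these and also for the 6 genes with the largest range of group means and for the main helicase, licensing, nucleotide, S phase entry and methylation genes; others are named for a stated count or role, after their values were seen. Members and lists were chosen with earlier results of these data known. The fit was tested on simulated data with independent noise on each array, so that test does not cover same-numbered arrays that deviate together. Promoter windows came from RefSeq, GRCm38.p6.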

Additional observations from a re-analysis of the deposited data

How the results depend on the processing

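In the fit without a replicate block 0 of the 43 genes were called, and the block, which leaves every difference as it is (winners against losers, median 0.25), also called 0 in each comparison, with smallest adjusted p of 0.136 for winners against losers and 0.101 for the irradiation interaction. Over all alternatives the count of called genes moved in 4 cases, each without unirradiated mp53 replicate 2, which leaves the dimmest array to stand for its group and assumes that it varies like the others: 1 gene for mp53 against WT unirradiated, 1 for irradiation of non-competing mp53, 5 for irradiation of mosaic mp53 and 3 for the irradiation interaction, against 0 at the other extreme.

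Medians over the 43 genes moved most with equal array medians: 1.79 for winners against losers, -0.70 for losers against non-competing WT, 0.59 for winners against non-competing mp53, -1.12 and 0.37 for mp53 against WT (unirradiated, irradiated), -0.22 and 1.22 for irradiation of non-competing WT and mp53, -1.04 and 1.79 for irradiation of mosaic WT and mp53, and 1.40 and 2.95 for the competition and irradiation interactions. With that setting 8 of the differences chosen by smallest p turned sign: Rfc5 (1.28, -0.41, -0.75, 0.86 and 2.37 in winners against losers, losers against WT, irradiated mosaic WT and the 2 interactions), Gins4 (-0.52, unirradiated mp53 against WT) and Cdt1 (0.035, irradiated mp53 against WT, and -0.11, irradiation of WT). Both values of Cdt1 stayed on the same side of the median of all probes, which was itself at 0.16 and -0.15 there. Of other genes described, Mcm6 (-0.71 to 1.19) and Chaf1b (-1.05 to 1.00) turned in winners against losers. Winners against losers gave 0.18 with no background correction, 0.19 in the authors' processed table, 0.20 with detection on both arrays of a group, 0.18 with no filter, -0.13 with brightness as a covariate, 0.074 without the 2 dimmest arrays and 0.18 within replicate 1. Irradiation of mosaic mp53 gave 0.22, 0.27, 0.30 (no filter), 0.050, 0.17 and 0.29 for those settings. Brightness gave 0.040 for losers against WT, -0.036 for irradiation of non-competing mp53, 0.020 and -0.40 for the interactions, 0.18 (from -0.20) for unirradiated mp53 against WT and 0.35 (from 0.06) for irradiation of mosaic WT, and leaving out the 2 dimmest arrays gave -0.032, 0.13 and -0.029 for irradiation of non-competing mp53 and the 2 interactions. Irradiated mp53 against WT gave -0.10 with detection on both arrays, -0.033 with no filter and -0.055 within replicate 2. Within 1 replicate, winners against non-competing mp53 gave -0.043 (replicate 1), irradiation of non-competing WT 0.057 (replicate 1) and of mp53 0.036 (replicate 2), and the irradiation interaction 0.033 (replicate 2). Leaving out single arrays gave medians from 0.074 (loser replicate 1) to 0.46 (loser replicate 2) for winners against losers, -0.018 to 0.23 for winners against non-competing mp53 (winner replicates 2 and 1), -0.085 to -0.014 for irradiated mp53 against WT (mp53 replicates 2 and 1), -0.032 to 0.40 for irradiation of non-competing mp53 (unirradiated mp53 replicates 1 and 2), 0.16 to 0.65 for irradiation of mosaic mp53 (winner replicates 2 and 1), -0.32 to 0.10 for unirradiated mp53 against WT (mp53 replicates 2 and 1), -0.14 to 0.22 for irradiation of mosaic WT (loser replicates 2 and 1), 0.12 to 0.33 for the competition interaction and 0.10 to 0.71 for the irradiation interaction. The cause of these moves was not tested. Dim arrays limit what could be detected. For the differences chosen by smallest p, 715 values under alternatives kept direction and side of the threshold. Many of them could not change direction, since the block and the omission of an array from another group leave a difference as it is. No gene was called in the main fit, so staying uncalled says little about how firm a difference is.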
